A study of Mus musculus with 4 samples.

Results

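The genes described here are 10 mouse genes known from neurons: the neurofilament and internexin genes Nefl, Nefm, Nefh and Ina, the neuropeptide precursor genes Penk and Npvf, the neurexophilin gene Nxph3, the synaptophysin gene Syp, the tubulin gene Tubb3 and the stathmin gene Stmn2. They were selected on their Smarcb1 minus empty vector differences and line differences in these same arrays, as a fixed list, and each was represented by its probe set with the highest mean signal among those that carry a single gene symbol. They are 10 of 19938 genes with such a probe set. All 10 passed the filter on dim genes (a mean at or above log2 4.27), which 13956 genes passed, and none of the 10 lay below that level on any array.

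The arrays came from a pair of mouse tumour cell lines, 365 and 167, grown from soft tissue tumours without Smarcb1 that arose in p53-/- mice carrying a single Smarcb1 allele, on a C57BL6/SV129J background. The Smarcb1 protein belongs to SWI/SNF, a complex that moves nucleosomes along chromatin. Each line was infected either with the retrovirus pMIG carrying Smarcb1 or with empty pMIG, and total RNA was taken 3 days after infection, a time the submitters chose to favour direct targets. Loss of p53 and of the cells' own Smarcb1 is therefore shared by all 4 groups, and each group is 1 array: line 365 with Smarcb1, line 365 with empty vector, line 167 with Smarcb1 and line 167 with empty vector. The labels do not say whether a line is a single clone, how many cells were infected, or how strongly the promoter of the virus drove Smarcb1.

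Neurofilaments are intermediate filaments of axons, built as mixed polymers in which the light chain Nefl assembles with Nefm, Nefh and the related alpha-internexin (Ina). Neuropeptides are cut from larger precursors and released from dense-core granules, while synaptophysin sits in the membrane of small synaptic vesicles. Tubulins and the stathmins that bind them shape the microtubules of growing neurites. Outside the nervous system many of these genes are kept silent by the repressor REST and its partners.

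The signal of Smarcb1 itself followed the vector labels. It was log2 9.61 with Smarcb1 and 6.01 with empty vector in line 365, and 7.83 with Smarcb1 and 4.61 with empty vector in line 167. Median signals over all probe sets lay between log2 5.03 and 5.07 on the 4 arrays. The intermediate filament gene Vim stood at 13.27 to 13.53 on every array. The 10 genes of the mesenchymal marker list, which does not hold Vim, spanned log2 3.03 to 11.91 over the 4 arrays. The 14 neuronal identity markers spanned log2 3.21 to 10.21 over the 4 arrays. The ubiquitin hydrolase gene Uchl1 was the highest of them at 9.71 to 10.21, the adhesion gene Ncam1 lay at 6.45 to 9.30 and the enolase gene Eno2 at 6.83 to 9.08, while the neuronal nuclear protein gene Rbfox3 stood at 4.59 to 4.77 and the neuronal RNA-binding protein gene Elavl3 at 4.88 to 5.08. For arrays, their number limits the precision: with 1 array for each line and vector, the change in a single line has no replicate, and the error given below for a mean change is the SD between the 2 lines. The 10 genes were chosen with their Smarcb1 response in view, so their values are a description and carry no p-value. In such bulk RNA, fewer cells that express a gene and less of its RNA per cell cannot be told apart.

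Of the 10 genes, 6 were lower with Smarcb1 in both lines by at least 1.5-fold (Nefl, Nefm, Syp, Penk, Npvf and Nxph3), a size that 1.35% of tested genes reached. Tubb3 and Stmn2 were higher by at least 1.5-fold in both lines, as were 2.79% of tested genes. Nefh and Ina did neither. At a size of 2-fold in both lines, 4 of the 10 were lower (Nefm, Penk, Npvf and Nxph3), against 0.186% of tested genes, and 1 was higher (Tubb3), against 1.33%. These shares are the background only, since the response chose the genes.

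**Figure D1:**
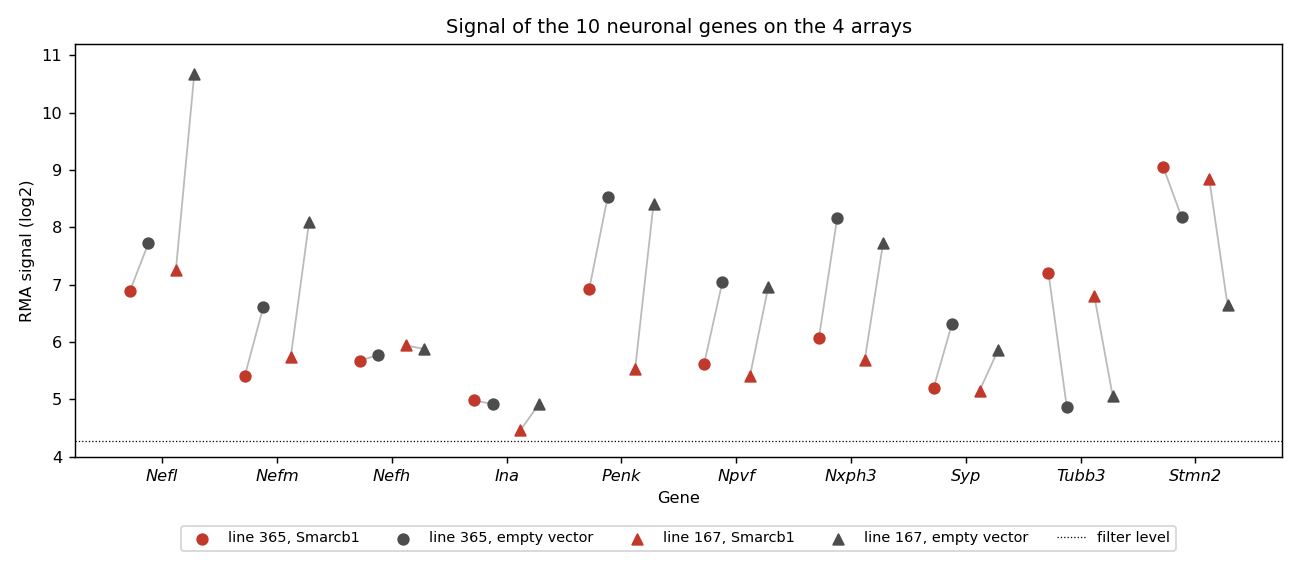
RMA signal (log2) of the 10 neuronal genes on each of the 4 arrays, with circles for line 365, triangles for line 167, red for Smarcb1 and dark grey for empty vector; grey lines join the arrays of a line and the dotted line is the filter level of log2 4.27. Nefl in line 167 shows the longest drop, with 7.26 with Smarcb1 and 10.68 with empty vector, while Tubb3 and Stmn2 slope the other way in both lines.

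The neurofilament genes divided into 2 that were lower with Smarcb1 and 2 that were nearly flat. Nefl, the light chain on which the other subunits assemble, had a signal of log2 6.89 with Smarcb1 and 7.72 with empty vector in line 365. In line 167 its signal was 7.26 with Smarcb1 and 10.68 with empty vector. The empty-vector array of line 167 thus stood apart from the other 3, and Nefl was lower with Smarcb1 by 10.7-fold in line 167 and by 1.77-fold in line 365. The mean difference on the log2 scale was -2.12 ± 1.83 (SD between lines, n = 2). In line 167 only 2 of the 13956 tested genes had a more negative difference than Nefl, and in line 365 there were 271.

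Nefm, the medium chain, had a signal of log2 5.41 with Smarcb1 and 6.60 with empty vector in line 365, and of 5.73 with Smarcb1 and 8.09 with empty vector in line 167. Both Smarcb1 arrays lay below both empty-vector arrays, and the empty-vector array of line 167 was again the highest. The log2 difference was -1.20 in line 365 and -2.36 in line 167, with a mean of -1.78 ± 0.82 (SD between lines, n = 2). Nefl and Nefm lie next to each other on chromosome 14, with 0 other protein-coding genes between them in the RefSeq annotation. Among the tested genes with a proper name Nefm had the third most similar pattern to Nefl over the 4 arrays, at a Euclidean distance of 1.09 after each gene was centred on its own mean. The peroxisomal lyase gene Hacl1 (0.886) and the muscarinic receptor gene Chrm2 (0.924) were nearer. Chrm2, however, lay below the filter level on every array except that of line 167 with empty vector (log2 6.43).

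Nefh, the heavy chain, which joins the filament late in axon maturation, was at log2 5.68 with Smarcb1 and 5.77 with empty vector in line 365, and at 5.94 with Smarcb1 and 5.88 with empty vector in line 167. Its largest difference between any arrays was thus small beside that of its partners, and its mean Smarcb1 difference was -0.02 ± 0.11 (SD between lines, n = 2). Ina, the internexin of early neurons, was at 4.98 with Smarcb1 and 4.91 with empty vector in line 365, and at 4.46 with Smarcb1 and 4.91 with empty vector in line 167. The Ina values sat near the filter level and its mean difference was -0.19 ± 0.37 (SD between lines, n = 2). A second Ina probe set lay below the filter level on all 4 arrays (log2 3.61 to 4.26) and entered only the alternative that averages probe sets.

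The neuropeptide precursor genes were both lower with Smarcb1. Penk, which encodes proenkephalin, the precursor of the opioid enkephalins, was at log2 6.92 with Smarcb1 and 8.52 with empty vector in line 365, and at 5.53 with Smarcb1 and 8.41 with empty vector in line 167. The empty-vector arrays of the lines were close to each other, while the Smarcb1 array of line 167 lay well below that of line 365. Penk was 3.03-fold lower in line 365 and 7.36-fold lower in line 167, and the mean log2 difference was -2.24 ± 0.91 (SD between lines, n = 2). In line 167 there were 3 tested genes with a more negative difference, and in line 365 there were 38.

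Npvf encodes the precursor of RFamide-related peptides, which in the hypothalamus restrain the reproductive axis. Its signal was log2 5.61 with Smarcb1 and 7.05 with empty vector in line 365, and 5.41 with Smarcb1 and 6.96 with empty vector in line 167. Here the lines agreed closely, with 2.71-fold lower signal in line 365 and 2.94-fold lower signal in line 167. The mean log2 difference was -1.50 ± 0.08 (SD between lines, n = 2).

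Nxph3 encodes a secreted glycoprotein that binds alpha-neurexins, the presynaptic adhesion receptors. It was at log2 6.06 with Smarcb1 and 8.17 with empty vector in line 365, and at 5.69 with Smarcb1 and 7.73 with empty vector in line 167. Of the 10 genes Nxph3 had the smallest spread between lines, with 4.30-fold lower signal in line 365, 4.12-fold lower signal in line 167 and a mean log2 difference of -2.07 ± 0.04 (SD between lines, n = 2). In line 365, 12 tested genes had a more negative difference, and in line 167, 11 had. The tested genes with the nearest pattern to Nxph3 over the 4 arrays were Dock9 (distance 0.561), Gchfr, a regulator of tetrahydrobiopterin synthesis (0.626), and Npvf (0.639). For Penk they were Nxph3 (0.775), Dock9 (0.802) and Tmem267 (1.01). Nxph3, Npvf and Penk were all chosen on these arrays, so their nearness is a description only.

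Syp, the membrane protein of synaptic vesicles, was at log2 5.20 with Smarcb1 and 6.32 with empty vector in line 365, and at 5.15 with Smarcb1 and 5.85 with empty vector in line 167. The Smarcb1 arrays of the lines nearly coincided. The signal was 2.18-fold lower in line 365 and 1.63-fold lower in line 167, with a mean log2 difference of -0.91 ± 0.30 (SD between lines, n = 2), the smallest among the 6 lower genes.

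Tubb3 and Stmn2 ran the other way. Tubb3, the beta-tubulin isotype used as a marker of young neurons, was at log2 7.20 with Smarcb1 and 4.86 with empty vector in line 365, and at 6.80 with Smarcb1 and 5.05 with empty vector in line 167. Both Smarcb1 arrays stood above both empty-vector arrays, by 5.08-fold in line 365 and 3.35-fold in line 167, with a mean log2 difference of 2.04 ± 0.43 (SD between lines, n = 2). The empty-vector signals of Tubb3 were dim, close to those of Ina and to the array medians (log2 5.03 in line 365 and 5.04 in line 167). Whether they exceeded background could not be tested. The nearest patterns to Tubb3 over the 4 arrays were those of the synaptotagmin-like gene Sytl5 (distance 0.253), the semaphorin gene Sema3f (0.258) and Dpysl3 (0.325), a collapsin response mediator that binds tubulin and actin in growth cones. Stmn2, a growth cone protein that binds tubulin dimers, was at 9.05 with Smarcb1 and 8.18 with empty vector in line 365, and at 8.85 with Smarcb1 and 6.64 with empty vector in line 167. Its difference was wider in line 167 (4.62-fold) than in line 365 (1.83-fold), from a lower empty-vector signal, and averaged 1.54 ± 0.94 on the log2 scale (SD between lines, n = 2).

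**Figure D2:**
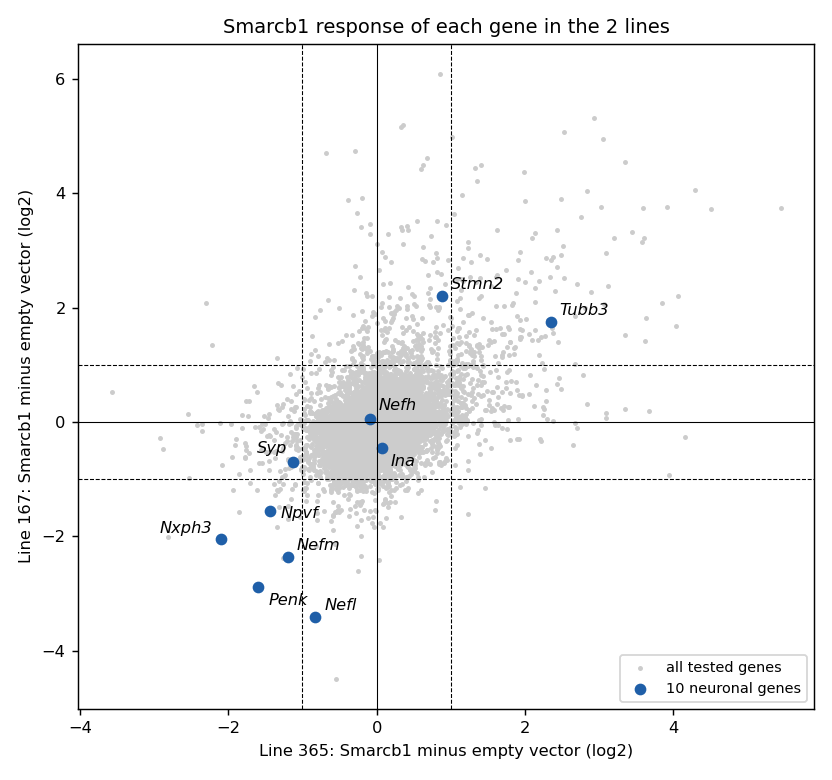
Log2 difference of Smarcb1 minus empty vector in line 365 (horizontal axis) and line 167 (vertical axis) for the 13956 tested genes in grey and the 10 neuronal genes in blue; dashed lines mark a 2-fold difference. Nxph3, Npvf, Penk and Nefm lie beyond 2-fold in the lower left corner, Tubb3 beyond 2-fold in the upper right, and Nefh and Ina within the central cloud.

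Line by line, 5 of the 10 genes were at least 2-fold lower with Smarcb1 in line 365 (all tested genes, 1.17%) and 5 in line 167 (1.49%). The lists differed by a gene each way, with Syp past 2-fold in line 365 and Nefl in line 167. At least 2-fold higher were 1 gene in line 365 (2.84%) and 2 in line 167 (3.4%). The lines shared no array, so their responses rest on separate controls.

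The distance between the lines also differed with the vector. With empty vector, Nefl was 7.77-fold lower in line 365 than in line 167, Nefm 2.81-fold lower and Stmn2 2.90-fold higher, and these were 3 genes of the 10 with a gap of at least 2-fold (12.9% of tested genes had such a gap). With Smarcb1, the same genes differed by 1.29-fold (Nefl), 1.25-fold (Nefm) and 1.15-fold (Stmn2). Penk was the reverse case: line 365 was 2.63-fold above line 167 with Smarcb1 and 1.08-fold above it with empty vector, and it was the 1 gene of the 10 with a 2-fold gap under Smarcb1 (9.51% of tested genes). The gap was narrower by at least 1 log2 unit with Smarcb1 than with empty vector for Nefl, Nefm and Stmn2 (3 of 10, against 2.28% of tested genes), and wider by as much for Penk (1 of 10, against 1.6%). The other 6 genes differed between the lines by 1.44-fold or less under either vector. For Nefl, Nefm, Stmn2 and Penk, whose line order was the same under both vectors, the change in the gap has the size of the difference between the lines' responses. For a gene whose line order switched, such as Tubb3, these quantities differ. The difference between the responses has no replicate here and was not tested.

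**Figure D3:**
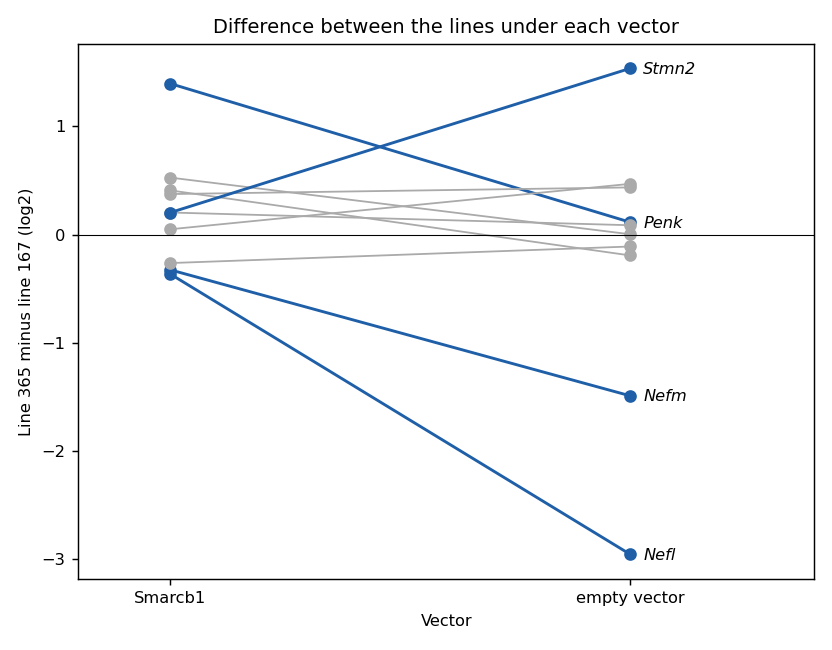
Log2 difference of line 365 minus line 167 for the 10 neuronal genes with Smarcb1 (left) and with empty vector (right); blue lines are the 4 genes whose gap differed by at least 1 log2 unit between vectors and grey lines the other 6. The Nefl line runs between -0.37 with Smarcb1 and -2.96 with empty vector, and Penk between 1.39 with Smarcb1 and 0.11 with empty vector.

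Promoters were available from RefSeq (GRCm38.p6) for 4 of the 10 genes: Npvf and Syp, which were lower with Smarcb1, Tubb3, which was higher, and the near-flat Ina. They are shown because these genes share a neuronal label and differ in response. Each sequence is the 250 bases before the annotated start, read 5′ to 3′ on the gene's strand, with the TATA box letters TATAAA and the GC box letters GGGCGG, searched on both strands, in capitals. Npvf (chr6:50654446-50654695, minus strand), Syp (chrX:7638330-7638579, plus strand), Tubb3 (chr8:123411303-123411552, plus strand) and Ina (chr19:47014431-47014680, plus strand) read as follows.
Npvf: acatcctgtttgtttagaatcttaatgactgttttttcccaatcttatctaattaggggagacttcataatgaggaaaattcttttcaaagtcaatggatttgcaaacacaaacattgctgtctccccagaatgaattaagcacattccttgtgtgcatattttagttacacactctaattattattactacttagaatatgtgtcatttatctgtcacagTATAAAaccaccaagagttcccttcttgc
Syp: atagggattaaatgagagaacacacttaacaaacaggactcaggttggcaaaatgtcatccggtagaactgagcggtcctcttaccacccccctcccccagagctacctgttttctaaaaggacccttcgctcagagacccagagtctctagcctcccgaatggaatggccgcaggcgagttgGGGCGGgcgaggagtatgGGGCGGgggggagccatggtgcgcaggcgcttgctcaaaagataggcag
Tubb3: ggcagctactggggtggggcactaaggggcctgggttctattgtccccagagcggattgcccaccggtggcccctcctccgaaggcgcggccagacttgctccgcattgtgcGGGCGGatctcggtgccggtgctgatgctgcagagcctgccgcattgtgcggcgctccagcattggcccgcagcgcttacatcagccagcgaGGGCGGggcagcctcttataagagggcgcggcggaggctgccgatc
Ina: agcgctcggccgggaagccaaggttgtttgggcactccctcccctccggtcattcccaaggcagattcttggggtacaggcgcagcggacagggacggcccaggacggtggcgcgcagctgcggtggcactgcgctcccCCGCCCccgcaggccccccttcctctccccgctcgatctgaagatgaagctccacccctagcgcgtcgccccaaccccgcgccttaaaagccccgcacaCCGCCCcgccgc

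The Npvf window is rich in A and T, with 33.2% G and C and 0 CG dinucleotides, and holds TATAAA at position -29, counted from the annotated start. The others are GC-richer, at 56.4% with 11 CG dinucleotides (Syp), 68.0% with 21 (Tubb3) and 70.8% with 25 (Ina), against medians of 52.4% and 6 over all 32851 promoter windows. Each of these 3 holds GGGCGG 2 times, at positions -67 and -49 in Syp, -138 and -46 in Tubb3 and -111 and -12 in Ina, with 0 matches to the TATA box letters. Over all windows, TATAAA was found in 12.4% and GGGCGG in 32.7%. Syp, Tubb3 and Ina therefore share the GC box letters while their Smarcb1 differences were -0.91, 2.04 and -0.19, and these matches describe letters, not bound sites.

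Other genes came from 10 neuronal lists of 152 genes, compiled with earlier results of these data known. The lists also hold relatives that are broadly expressed, such as Tuba1a and Syngr2. Of the 152 genes, 142 matched a probe set and 109 were tested. None passed limma's test for Smarcb1 against empty vector (adjusted p below 0.05, which 0.0645% of all tested genes passed). At an unadjusted p below 0.05 there were 20 of the 109, 15 higher and 5 lower, or in all tested genes 11.6%. Of the 109, 4 were at least 2-fold higher with Smarcb1 in both lines (3.67%, against 1.33% of all tested genes). At least 2-fold lower in both lines were 0 of the 109, which is near the share of all tested genes, 0.186%. The median of the mean log2 difference was 0.06 for the lists and -0.03 for all tested genes.

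All 4 belonged to the microtubule and axon growth lists. Tubb2b, a beta-tubulin of migrating young neurons, was at log2 7.86 with Smarcb1 and 6.32 with empty vector in line 365 and at 9.09 with Smarcb1 and 6.71 with empty vector in line 167 (limma adjusted p = 0.106). Dpysl3 was at 9.83 with Smarcb1 and 7.90 with empty vector in line 365 and at 9.47 with Smarcb1 and 7.83 with empty vector in line 167, which gave the smallest limma adjusted p of the lists, 0.0620. Dpysl3 passed in 4 alternative fits (other filters and normalizations), with limma adjusted p-values between 0.0222 and 0.0404. Nrn1 passed in 2 of these fits and Tubb2b in 1. Dpysl3 did not pass without the variance trend (limma adjusted p = 0.0825) or without a term for the cell line (limma adjusted p = 0.944). Its relative Crmp1 was higher by log2 1.09 in line 365 and 1.17 in line 167 (limma adjusted p = 0.145). Nrn1, which encodes the neurite growth factor neuritin, was higher by 3.05 in line 365 and 4.95 in line 167 (limma adjusted p = 0.0865).

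Among tubulins and stathmins the median of the mean log2 difference was 0.31 over 11 tested genes, with 3 higher and 1 lower at an unadjusted p below 0.05. The lower one was the alpha-tubulin gene Tuba4a, at -0.91 in line 365 and -0.30 in line 167 (limma adjusted p = 0.419). Tubb2a followed Tubb2b, with a log2 difference of 0.86 in line 365 and 1.56 in line 167 (limma adjusted p = 0.193), while the broadly expressed Tuba1a differed by 0.33 and 0.21 in the same order. Among axon growth and microtubule-associated genes the median was 0.46 over 14 tested genes, with 6 at an unadjusted p below 0.05, all higher. The neurogenic factor list had a median of 0.24 over 15 tested genes, with 4 at an unadjusted p below 0.05, all higher. Its largest shared differences were Gata3, a zinc finger factor of sympathetic neurons and other lineages, at 1.78 in line 365 and 0.91 in line 167 (limma adjusted p = 0.205), and Sox4, a factor of differentiating progenitors, at 0.98 in line 365 and 1.24 in line 167 (limma adjusted p = 0.113).

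The closest relatives of the lower genes showed no shared decrease of 2-fold, a size that only 0.186% of all tested genes reached. The other neuropeptide precursors, 18 tested, had mean log2 differences between -0.25 and 0.46, and Npff, which encodes peptides of the same RFamide group as Npvf, stood at 0.08 in line 365 and -0.19 in line 167. The genes that process and package peptides, 7 tested, had a median of 0.10, with 2 at an unadjusted p below 0.05, both lower (Pam and Vgf). Pam stood at -0.21 in line 365 and -0.41 in line 167 (limma adjusted p = 0.426). The carboxypeptidase gene Cpe was at log2 10.66 with Smarcb1 and 10.68 with empty vector in line 365. In line 167 Cpe was at 11.44 with Smarcb1 and 11.56 with empty vector. The granule protein gene Vgf had the lowest value of that list, with -1.75 in line 365 and -0.41 in line 167 (limma adjusted p = 0.372). Vgf was named here after its values were seen, as were Pam, Nxph1 and the peripherin gene Prph. The other intermediate filament genes, 6 tested, lay between -0.45 and 0.27, with Prph, a type III filament of peripheral neurons, at -0.01 in line 365 and -0.48 in line 167 and Vim at 0.09 and -0.22 in the same order. Of the neurexophilins, neurexins and neuroligins, 5 tested, Nxph1 stood at 0.19 in line 365 and 2.42 in line 167 (limma adjusted p = 0.458), the opposite sign to Nxph3, and the neuroligin gene Nlgn2 stood at 0.04 and -0.03. The delta opioid receptor gene Oprd1, which binds enkephalins, was at 0.21 in line 365 and -0.33 in line 167.

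Synaptic vesicle genes, 19 tested, had a median of -0.06, with 2 at an unadjusted p below 0.05, both lower. Among them Syngr2, a broadly expressed relative of Syp, was at -0.46 in line 365 and -0.47 in line 167 (limma adjusted p = 0.284). Neuronal identity markers, 12 tested, had a median of -0.02, with Uchl1 at -0.12 in line 365 and -0.51 in line 167. In that list 2 genes had an unadjusted p below 0.05, both with positive differences: Ncam1, at 1.13 in line 365 and 0.33 in line 167 (limma adjusted p = 0.376), and the surface glycoprotein gene Thy1, at 0.37 in line 365 and 1.30 in line 167 (limma adjusted p = 0.369). The REST and corepressor list, 15 tested, had a median of 0.07, with 0 genes past limma's test (0.0645% of all tested genes) and 1 at an unadjusted p below 0.05 (11.6% of all tested genes), the splicing regulator gene Ptbp2. Rest itself, named after its values were seen, was at log2 8.21 with Smarcb1 and 7.86 with empty vector in line 365 and at 8.01 with Smarcb1 and 8.23 with empty vector in line 167, and the deacetylase gene Hdac1 differed by -0.03 in line 365 and -0.51 in line 167. Ncam1, Eno2, Thy1, Ptbp2, Tuba4a, Col1a1, Col1a2, Twist1 and Foxd3 were also named after their values were seen.

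**Figure D4:**
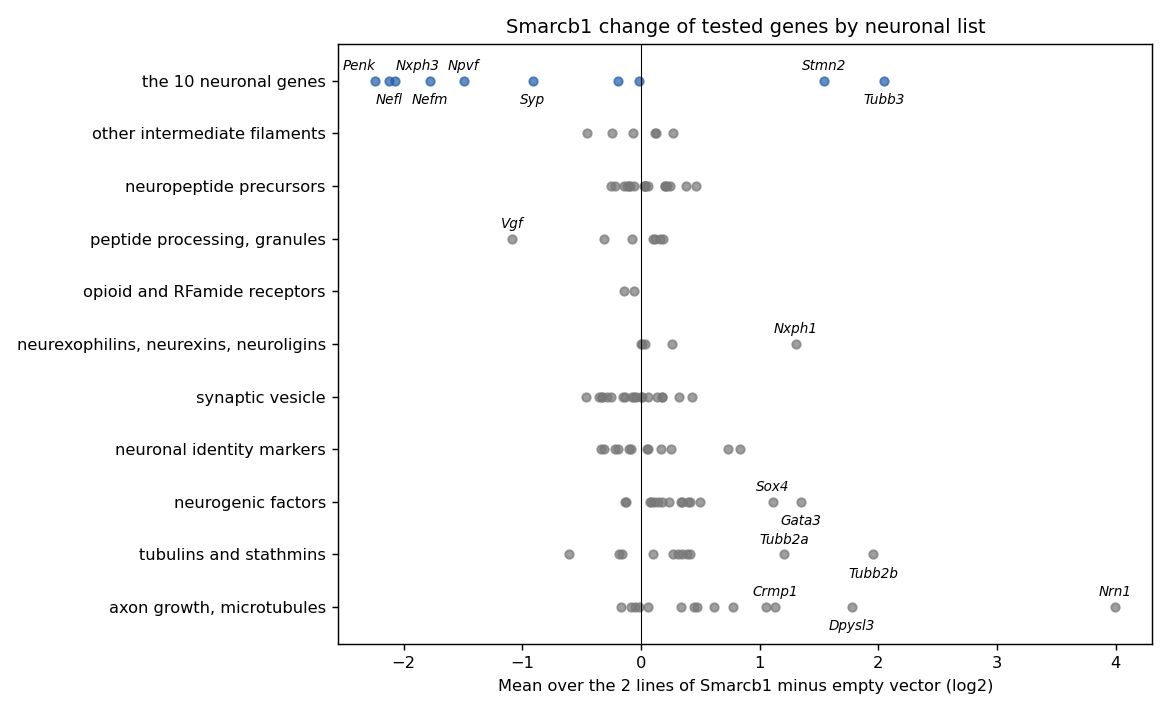
Mean over the 2 lines of the log2 difference Smarcb1 minus empty vector, for the 10 neuronal genes (blue, top) and the tested genes of 10 other neuronal lists (grey), 1 point per gene. The tubulin and axon growth lists at the bottom reach furthest right, to 1.96 for Tubb2b, with Nrn1 further out, and no grey point lies as far left as Nxph3, Nefl or Penk.

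Markers of other cell types were set beside these values. None of their tested genes passed limma's test for Smarcb1, as 0.0645% of all tested genes did, and at an unadjusted p below 0.05 (11.6% of all tested genes) there was 1 gene each in the glial (Foxd3), mesenchymal (Twist1) and immune (Cd68) lists and 0 in the others. In the glial and Schwann list 0 of 6 tested genes passed, and the summed linear signal was 204 to 206 with Smarcb1 and 186 to 213 with empty vector. The chromaffin list gave 0 of 3, with a summed signal of 127 to 1019 with Smarcb1 and 120 to 1555 with empty vector, a range set by Ddc, which differed between the lines. The epithelial list gave 0 of 6 (232 to 249 with Smarcb1, 228 to 241 with empty vector) and the muscle list 0 of 4 (196 to 197 and 184 to 218 in the same order). The mesenchymal list gave 0 of 8, with a summed signal of 2997 with Smarcb1 and 3047 with empty vector in line 365, and of 12050 with Smarcb1 and 7927 with empty vector in line 167. Its median log2 difference was -0.01 in line 365 and 0.75 in line 167. In line 167, where Nefl, Nefm and Penk had their larger differences, the collagen genes Col1a1 and Col1a2 stood at 2.65 and 1.74 and the mesenchymal factor gene Twist1 at 1.16, against 0.03, 0.00 and 0.40 in line 365 (limma adjusted p for the mean difference 0.501, 0.534 and 0.355). The immune list gave 0 of 3, with a summed signal of 401 with Smarcb1 and 1095 with empty vector in line 365, and of 512 with Smarcb1 and 735 with empty vector in line 167. These immune sums were set mainly by the lysosomal protein gene Cd68, at log2 8.18 to 9.95, with the other genes of that list at 5.22 or below. Cd68 had a log2 difference of -1.78 in line 365 and -0.64 in line 167 (limma adjusted p = 0.273), while the leukocyte gene Ptprc stayed at 3.66 to 4.06 on all arrays. The part of these cell types in the values of the 10 genes was not tested.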

How the data were processed

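RNA of 4 samples was measured on whole-transcript arrays. Per the submitters' processing notes, the authors ran RMA (Affymetrix Expression Console), which gave the deposited log2 signals of probe sets. The version of that software is not stated in those notes. Quantile-normalized values cannot show a change in total RNA per cell. Gene symbols came from the platform annotation, with 21789 probe sets of 1 symbol, 1621 of several and the rest unnamed here. The 10 genes and all lists were chosen with earlier results of these data known.

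Genes with a mean at or above the 30th percentile (log2 4.27) were tested with limma 3.58.1 in R 4.3.3 on the deposited log2 values (lmFit with terms for vector and cell line, eBayes with trend, two-sided, Benjamini-Hochberg over 13956 genes), after tests on simulated data. The cell line pairs the arrays, and arrays of a line deviated together from the vector means (correlation 0.770 across genes). This leaves 1 residual degree of freedom. Repeat cultures are not mentioned in the labels, so the 2 lines are the only replication. For the p-values, eBayes combined each gene's spread between the lines with a value fitted from other genes of similar signal. That fitted value had a median weight of 3.75 prior degrees of freedom, more than the 1 residual degree of freedom. Genes outside the 10 were named from each list by a fixed rule: those past the test, up to 4 with the largest mean difference among those that differed 1.5-fold or more with 1 sign, the 1 of highest mean signal, the 4 largest line differences past the test, and for Nefl, Nxph3, Penk and Tubb3 the 3 nearest patterns (predicted and olfactory or vomeronasal receptor genes passed over). Rbfox3, Elavl3 and Ptprc are given as defining markers. Alternatives changed the filter, trend, normalization, threshold, probe set rule and cell line term.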

Additional observations from a re-analysis of the deposited data

Results flagged for a closer look

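Nefh and Ina were singled out because their Smarcb1 differences had opposite signs in the lines. Nefh was at log2 -0.0934 in line 365 and 0.0598 in line 167, and Ina at 0.0689 in line 365 and -0.455 in line 167. The difference between the lines was not tested. A second Ina probe set had negative differences in both lines but lay below the filter level on all 4 arrays.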

How the results depend on the processing

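The Smarcb1 differences of the 10 genes in each line, and their line differences under each vector, were recomputed under other settings. They moved by at most 0.08 log2 units after a further quantile normalization and 0.10 after cyclic loess. Raising values to the filter level could not move them, since none of the 10 genes lay below it on any array. The mean of all probe sets could alter Ina alone, since each of the other genes has 1 probe set with a single symbol. It moved Ina to -0.22 in line 365, and the second Ina probe set is below the filter level. No difference of at least 2-fold changed sign under these settings. The count of all genes past limma's test for Smarcb1 was 9, and became 68 with every gene tested, 101 with the filter set at the 50th percentile, 49 under cyclic loess, 48 under quantile normalization, and 103 when the threshold was 0.10. With no replicate block for the cell line it was 0, with 450 genes at an unadjusted p below 0.05. The line count of 1528 became 2915 at an adjusted p below 0.10. The 4 neuronal list genes higher in both lines became 7 at 1.5-fold, and 6 to 10 with a single line. The 0 lower ones became 0 to 1 with a single line. Why these counts moved was not tested. With 1 array per line and vector, signal over background could not be tested for dim genes.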

Other observations

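The lines differed in other genes of the neuronal lists whatever the vector. Of the 109 tested genes of the neuronal lists, 8 were higher and 12 lower in line 365 than in line 167 by limma's line term, against 10.9% of all tested genes in either direction. Gata2, a zinc finger factor of several lineages, was at log2 9.90 in line 365 and 5.79 in line 167 with Smarcb1, and at 9.65 in line 365 and 5.37 in line 167 with empty vector (limma adjusted p = 0.00250). Sox11, a factor of immature neurons named after its values were seen, was at 4.27 in line 365 and 7.02 in line 167 with Smarcb1, and at 4.18 in line 365 and 7.38 in line 167 with empty vector (limma adjusted p = 0.00501). In the separate chromaffin marker list, Ddc, the decarboxylase of dopamine and serotonin synthesis, was at 5.01 in line 365 and 9.85 in line 167 with Smarcb1, and at 4.57 in line 365 and 10.50 in line 167 with empty vector (limma adjusted p = 0.00369). Outside neurons, line 365 minus line 167, averaged over the vectors, was log2 -5.19 for the collagen gene Col3a1, -4.08 for the growth factor receptor gene Pdgfrb and -2.80 for the mesenchymal homeobox gene Prrx1 (limma adjusted p between 0.00223 and 0.00348).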
